A study of Homo sapiens with 6 samples.

Results

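The miR-548 family is a group of human miRNAs with lettered names that arose from a transposon. Its members were taken by name, as every human probe whose name begins with miR-548, in any case, followed by a letter or nothing, with mismatch probes left out. That gave 56 of the 2997 probes of the array and 56 of its 1741 human miRNA probes. Of the 56, 28 carry a mature name and 28 carry the suffix P, read here as precursor-named because the sources used here do not explain the suffix. The rule uses names and no measured value. The cells were HCT-116, a human colorectal carcinoma line, and all groups were transiently transfected. The mock group received an empty vector, and the other groups overexpressed Uc283+a, a long noncoding transcript of an ultraconserved region of the genome, as variant 1 with a run of 8 T in its sequence or as variant 2 with a run of 9 T. Each group had 2 arrays of total RNA, and the question of the design is which miRNAs change when Uc283+a is raised. The model is 1 cell line under transient transfection, how far the transfected RNA was raised is not analysed here, and no label gives separate cultures for the arrays of a group, so p-values rest on array-to-array spread alone, which may be technical.

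A miRNA is cut from a primary transcript in the nucleus by Drosha and DGCR8, which leave a hairpin precursor, and Dicer then releases the mature strand that guides Argonaute to target mRNAs. Most miR-548 hairpins derive from MADE1, a short palindromic element of the mariner type that spread in the primate lineage. Because the element is palindromic, a transcript through a single copy folds back on itself into a hairpin. Many copies gave many genes with closely related sequences, often within introns of host genes. In human cells, miR-548 members have been reported to target the mRNA of interferon lambda 1, an antiviral cytokine.

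The palindromic origin can be read in the precursor of miR-548m, shown because it was the hairpin of a member that RefSeq's table gave for GRCh38.p14. It covers chrX:95063141-95063226 on the minus strand and is printed 5′ to 3′ with the mature strand, bases 15 to 35, in capitals.
MIR548M hairpin: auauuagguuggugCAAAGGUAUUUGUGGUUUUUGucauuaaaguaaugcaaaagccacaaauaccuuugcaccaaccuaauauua
Bases 1 to 29 of the 86 bases were the exact reverse complement of bases 56 to 84, a perfect arm of 29 bases. Among the 1514 other human miRNA hairpins in the same table, the longest such arm had a median of 8 bases, and 36 hairpins (2.38%) had an arm of at least 29 bases.

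Of the 28 mature-named members, 12 matched a mature sequence of RefSeq (GRCh38.p14) by exact name and 7 more only with an arm that the array name does not give, which together made 23 sequences of 19 to 23 bases with 18 distinct seeds. The seed, bases 2 to 8, is the stretch through which a miRNA mainly pairs with its targets, and it is in capitals in the 9 sequences shown here. They were chosen to show the shared seed (miR-548b-5p and miR-548w) and the member with the highest GC content (miR-548q). Also shown are names with a mature probe (miR-548t-5p) or only a precursor probe (miR-548k and miR-548u) that carried signal. Near relatives of these by sequence are miR-548l, miR-548n and miR-548c-3p.
hsa-miR-548b-5p: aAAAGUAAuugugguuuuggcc
hsa-miR-548w: aAAAGUAAcugcgguuuuugccu
hsa-miR-548k: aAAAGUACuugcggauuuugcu
hsa-miR-548l: aAAAGUAUuugcggguuuuguc
hsa-miR-548n: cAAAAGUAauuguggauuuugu
hsa-miR-548t-5p: cAAAAGUGaucgugguuuuug
hsa-miR-548u: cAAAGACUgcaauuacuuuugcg
hsa-miR-548c-3p: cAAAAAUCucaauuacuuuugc
hsa-miR-548q: gCUGGUGCaaaaguaauggcgg
The first 6 of these begin with A or C, a run of A and then GU. The seed AAAGUAA was shared by miR-548b-5p, miR-548w and miR-548j-5p, the seed GCAAAAG by miR-548f-5p, miR-548g-5p and miR-548x-5p, and the seed AAAAACU by miR-548j-3p and miR-548x-3p. Each of miR-548l, miR-548n and miR-548w lay at an edit distance of 4 letters from miR-548k, as did miR-548t-5p from miR-548n and miR-548u from miR-548c-3p, and miR-548g-5p and miR-548x-5p were identical. The letters AAAGUAA occurred in 15 of 52 miR-548 sequences in the table (28.8%) and in 3 of 2299 other human mature sequences (0.130%). Their reverse complement, UUACUUU, occurred in 18 of 52 (34.6%) and in 4 of 2299 (0.174%). Whether a probe also binds relatives of the miRNA it is named for was not tested, and the probes' own sequences were not used here.

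By the same table, miR-548b-5p lies at chr6:119069098-119069119 on the minus strand, miR-548w at chr16:26025246-26025268 on the plus strand and miR-548k at chr11:70283986-70284007 on the plus strand. The miRNA miR-548l lies at chr11:94466545-94466566 on the minus strand, miR-548n at chr7:34940804-34940825 on the minus strand and miR-548t-5p at chr4:173268169-173268189 on the plus strand. The miRNA miR-548u lies at chr6:57390180-57390202 on the plus strand, miR-548c-3p at chr12:64622569-64622590 on the plus strand and miR-548q at chr10:12725325-12725346 on the minus strand. All 56 members matched a gene symbol in the RefSeq gene table of GRCh38.p14, 37 MIR548 genes on 18 chromosomes. Of these 37 genes, 27 lie inside the span of another gene and 26 inside that of a protein-coding gene. MIR548U lies within PRIM2, which encodes a primase subunit, and MIR548K within PPFIA1, which encodes a liprin. MIR548T lies within GALNT7, which encodes a glycosyltransferase of O-linked glycans, MIR548Q within CAMK1D, which encodes a calcium-dependent kinase, MIR548E within SHOC2, which encodes a scaffold of Ras signalling, and MIR548F4 within CNTNAP2, which encodes a neuronal adhesion protein. MIR548H2 lies within a long noncoding RNA gene, LOC105371082, and MIR548A2 within no other gene of the table. The mature name miR-548h stands for 5 gene copies.

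All values are log2 signals as the authors normalized them, so a difference of 1 is a 2-fold ratio. The background level of an array was set at the 95th percentile of its 38 random-sequence probes and ranged from 6.75 to 7.27. A probe counts as above background when it passed that level on each of the 6 arrays. Array medians over all probes lay between 6.56 and 6.60. Mock replicate 1 and variant 2 replicate 2 stood apart: over the 387 human miRNA probes above background, the SD of the difference between 2 arrays was 0.67 to 0.84 for pairs that held either of them and 0.46 to 0.58 for the other pairs. The 4 small nucleolar RNA probes read on average 0.55 lower in both variants than in mock. Of 13 probes for miRNAs of colorectal epithelium, 3 were above background (miR-21, miR-200b and miR-200c), miR-192 and miR-194 passed the level on 1 array each and miR-215 on none. None of 7 probes for haematopoietic miRNAs was above background, while 1 of 2 for liver (miR-122), 1 of 5 for muscle (miR-206), 3 of 5 for neural tissue (miR-124, miR-124* and miR-128) and 1 of 6 for fibroblasts (miR-145*) were.

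Most of the family gave no signal above background. In all, 9 of 56 members (16.1%) were above background on all 6 arrays, against 387 of 1741 human miRNA probes (22.2%). By kind of name, 3 of 28 mature-named members (10.7%) were above background, against 259 of 1115 human mature-named probes (23.2%). Of the precursor-named members 6 of 28 (21.4%) were, against 128 of 626 (20.4%). No test was made of these shares, since probes of related sequence are not independent. Of the other 47 members, 19 passed the level on no array, 14 on 1, 7 on 2, 4 on 3 and 3 on 4. Those 47 members read between 3.86 and 7.94 over the 6 arrays, with a median of 6.36. A value below the level carries little information on a change. Where a group of a comparison lies below it, array values, p-values and, at most, a bound are given in place of a difference. The fitted difference of miR-548a-5p between the variants, among the results flagged for a closer look, is an exception and is printed with that limit.

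**Figure D1:**
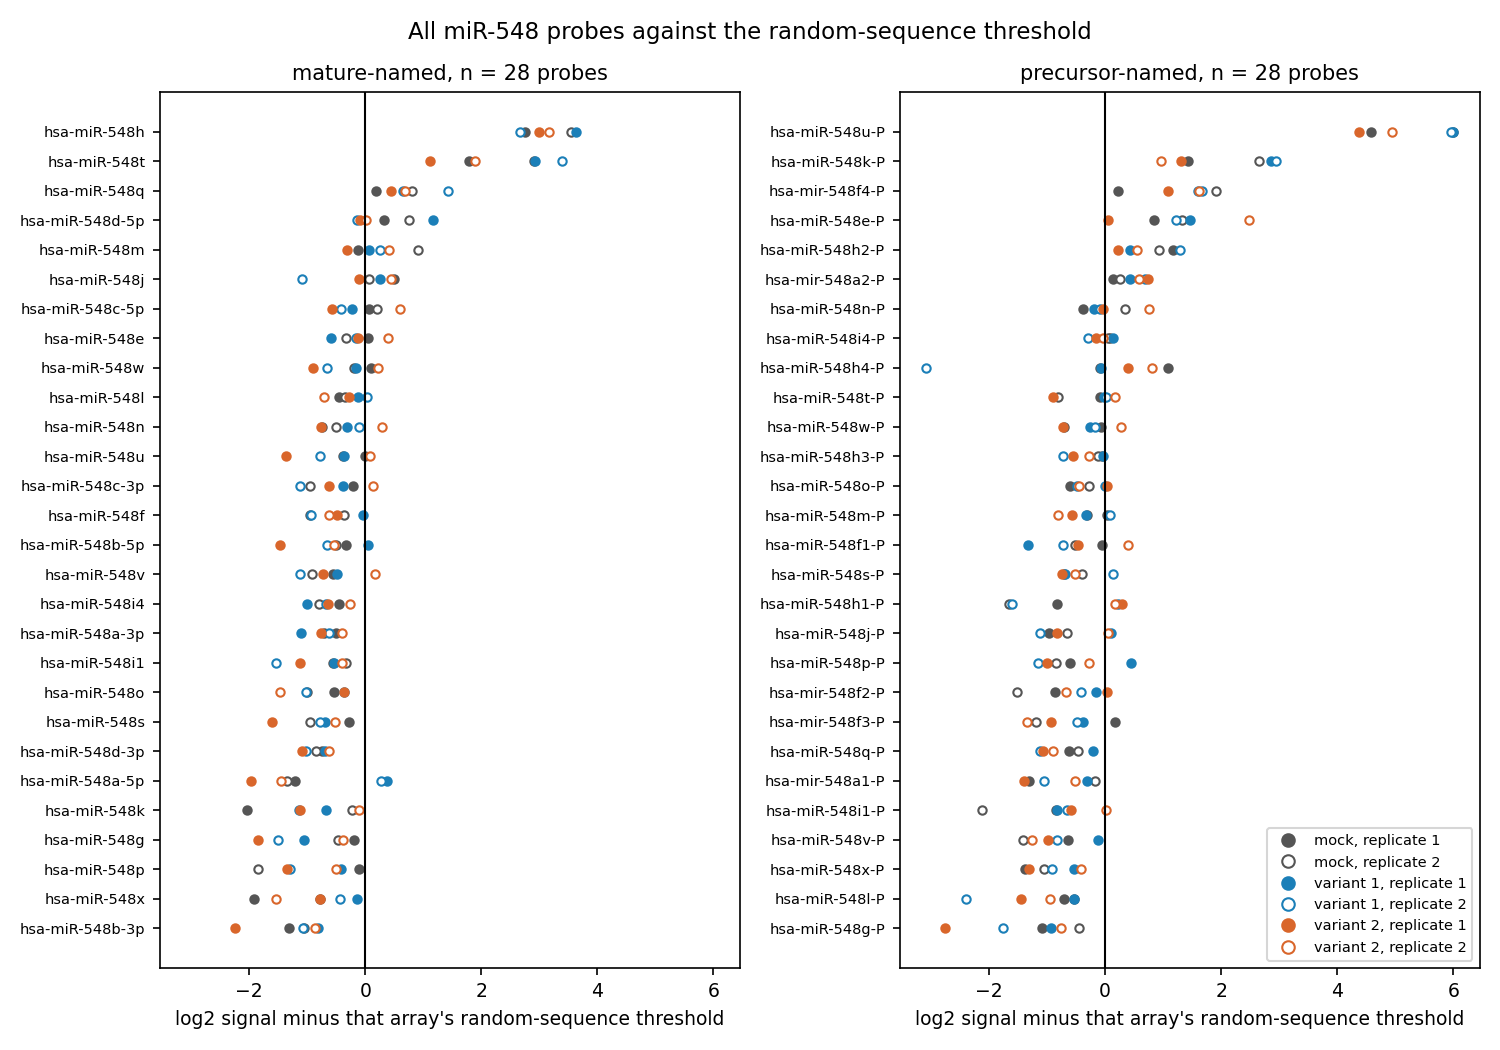
Log2 signal of each of the 56 miR-548 probes on each of the 6 arrays, less the random-sequence level of that array, so that 0 marks the level. Most probes lie at or below 0, and 9 lie above it on all 6 arrays.

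The number of members above the level changed with the array. It was 18 and 15 of 56 in mock, 18 and 15 in variant 1, and 13 and 27 in variant 2. The lowest and the highest number were thus both on variant 2 arrays. These arrays also held the lowest and the highest share over all human miRNA probes, 25.7% and 43.1%, and their random-sequence levels were 7.27 and 6.75, the highest and the lowest of the 6.

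Among the mature names, miR-548h, miR-548t and miR-548q were above background. The probe for miR-548h, whose 5 gene copies it cannot tell apart, read 9.63 and 10.35 in mock, 10.39 and 9.62 in variant 1 and 10.27 and 9.92 in variant 2. All 3 groups overlap, and the variant 1 arrays held both the highest and the lowest value. The probe for miR-548t, the miRNA in GALNT7, read 8.66 and 9.71 in mock, 9.68 and 10.34 in variant 1 and 8.39 and 8.65 in variant 2. Both variant 1 arrays lay above both variant 2 arrays, mock replicate 1 lay near the variant 2 arrays and mock replicate 2 near the lower variant 1 array. The probe for miR-548q, the miRNA in CAMK1D whose sequence has a GC content of 54.5% against a median of 36.4% for the 12 members matched by exact name, read 7.05 and 7.61 in mock, 7.40 and 8.36 in variant 1 and 7.71 and 7.43 in variant 2. Its groups overlap, with the highest value on a variant 1 array and the lowest on a mock array.

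Of the precursor names, 6 were above background. The probe hsa-miR-548u-P, for the precursor in PRIM2, read 11.44 and 12.81 in mock, 12.74 and 12.91 in variant 1 and 11.64 and 11.70 in variant 2. Here mock replicate 1 lay below both variant 2 arrays and mock replicate 2 between the variant 1 arrays, and the variant groups did not overlap. For hsa-miR-548k-P, the precursor in PPFIA1, the signal was 8.30 and 9.46 in mock, 9.61 and 9.89 in variant 1 and 8.59 and 7.71 in variant 2. Both variant 1 arrays lay above all others and both mock arrays lay within or above the range of variant 2. The signal of hsa-mir-548f4-P, the precursor in CNTNAP2, was 7.09 and 8.72 in mock, 8.36 and 8.62 in variant 1 and 8.36 and 8.38 in variant 2. Mock replicate 1 stood alone below the other 5 arrays, which lay between 8.36 and 8.72.

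For hsa-miR-548e-P, the precursor in SHOC2, the readings were 7.71 and 8.13 in mock, 8.21 and 8.17 in variant 1 and 7.32 and 9.23 in variant 2. The variant 2 arrays held both the lowest and the highest of the 6 values. The precursor probe hsa-miR-548h2-P gave 8.03 and 7.73 in mock, 7.19 and 8.24 in variant 1 and 7.50 and 7.31 in variant 2, and its groups overlap except that both variant 2 arrays lay below both mock arrays. For hsa-mir-548a2-P the readings were 7.001 and 7.06 in mock, 7.18 and 7.63 in variant 1 and 8.01 and 7.33 in variant 2. Its mock arrays were the lowest of the 6, and all 4 variant arrays lay above them. Of the 9 members above background, 4 had their lowest value on mock replicate 1 and none its highest there, and 5 had their highest value on variant 1 replicate 2.

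**Figure D2:**
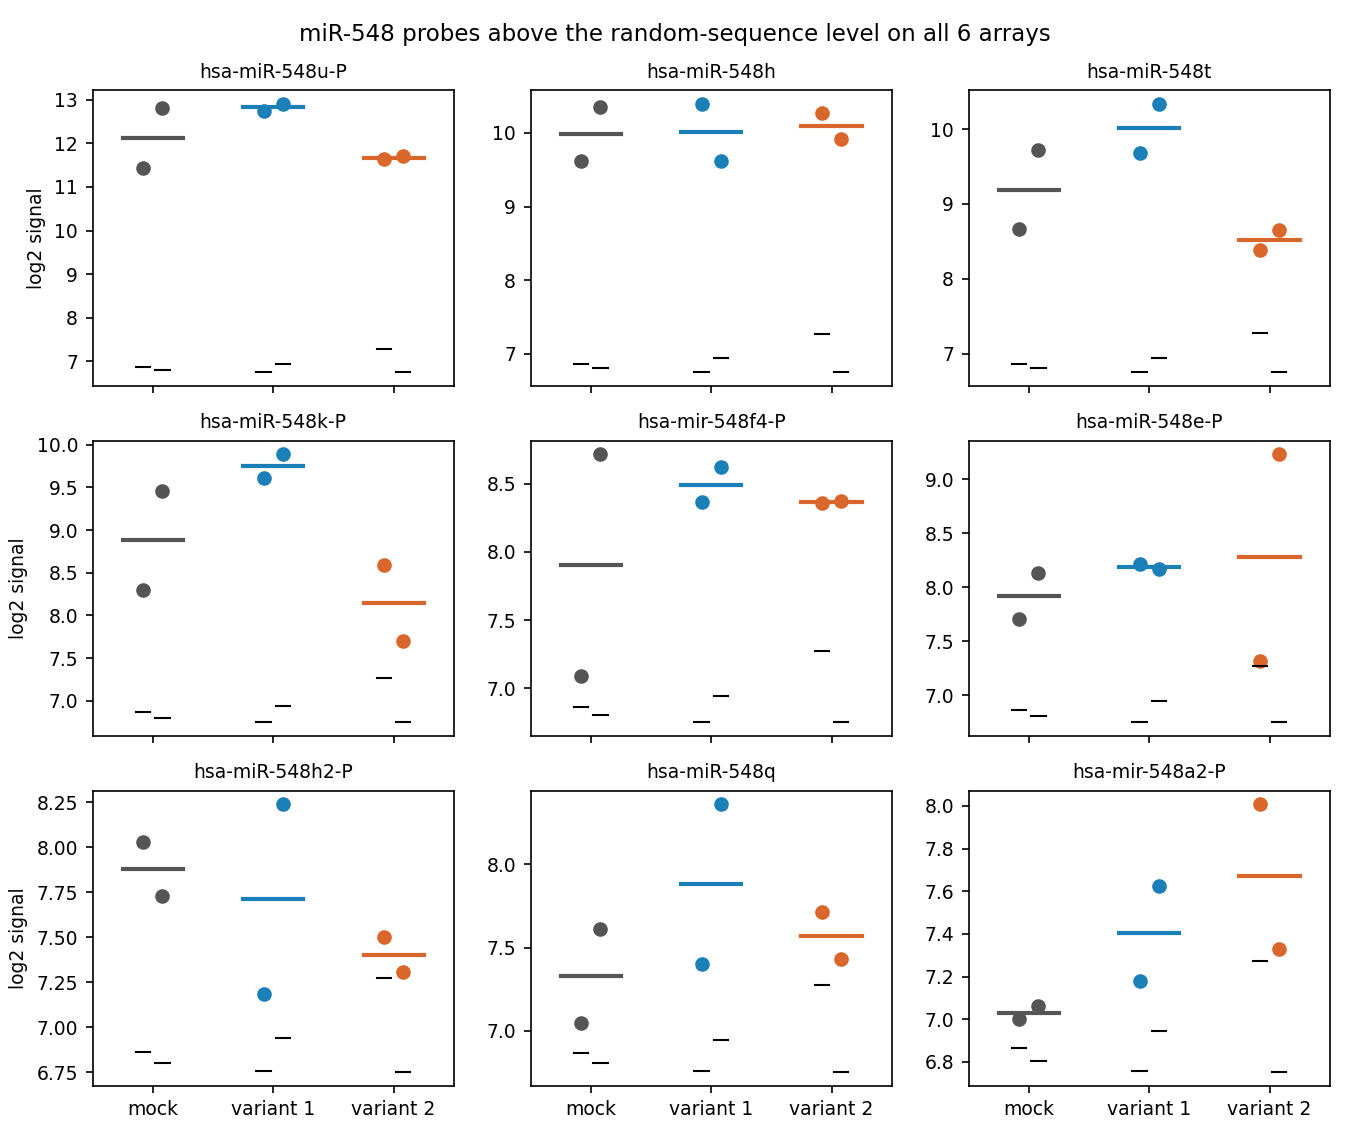
Log2 signal of the 9 miR-548 probes above background, 1 panel a probe, with 2 points a group for the 2 arrays, a bar for the group mean, and a black tick for the random-sequence level of each array. In the panels of miR-548u-P, miR-548t and miR-548k-P both variant 1 points lie above both variant 2 points, and the mock points are spread.

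Of 18 names with 1 mature and 1 precursor probe, none had both above background on all 6 arrays, miR-548q and miR-548t had the mature probe alone above it, miR-548e, miR-548k and miR-548u the precursor probe alone, and 13 neither. On single arrays some pairs passed the level together: miR-548e passed it on 2 arrays while miR-548e-P passed on all 6, and miR-548t-P on 2 while miR-548t passed on all 6. The probe hsa-miR-548u ranged from 5.91 to 6.86 over the 6 arrays, above the level on 1 of them, and hsa-miR-548u-P from 11.44 to 12.91. For miR-548w the mature probe ranged from 6.28 to 6.97 and the precursor probe from 6.09 to 7.03, the first above the level on 2 arrays and the second on 1. For the 4 names with a 3p and a 5p probe (miR-548a, miR-548b, miR-548c and miR-548d), neither arm was above background on all 6 arrays. Levels of different probes are not compared, since each probe has its own binding strength.

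Against mock, overexpression of either variant moved no member past the threshold. With both variants pooled, 35 of 56 members (62.5%) were higher and 21 lower, beside 49.4% higher of all 1773 probes tested. The median difference was 0.076, beside -0.0073 over all probes tested. Without mock replicate 2 the count was 27 higher and 29 lower. Most members lay below background, so these counts of direction carry little information on a change. By limma, 0 of 56 members had an adjusted p under 0.05 (the lowest was 0.975), as had 0 of 1773 probes (0%). At an unadjusted p under 0.05 there were 2 members, beside 4.62% of all probes tested. In 4 members (7.14%) all variant arrays lay above both mock arrays, beside 6.54% of all probes tested, and in none did they lie below, beside 6.71% (13.3% in either direction). These were mir-548a2-P, which was above background, and mir-548f2-P, miR-548n and miR-548x-P, which were not.

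Of the 9 members above background, 8 were higher in the variants, by differences of 0.063 (miR-548h) to 0.53 (mir-548f4-P), and miR-548h2-P was lower, with a difference of -0.32. Of all human miRNA probes above background, 51.2% were higher. Mock was 7.03 ± 0.042 (SD, n = 2) for mir-548a2-P and the variants together 7.54 ± 0.37 (SD, n = 4), a difference of 0.51 (SE 0.35, limma adjusted p = 0.975). For mir-548f4-P the difference of 0.53 had an SE of 0.46 and a limma adjusted p of 0.975. Several of these directions rested on 1 array. Without mock replicate 1 the differences were -0.56 for miR-548u-P, -0.30 for miR-548h, -0.45 for miR-548t, -0.51 for miR-548k-P and -0.29 for mir-548f4-P, which left 3 of the 9 higher. The difference of miR-548e-P, 0.31, became -0.16 without variant 2 replicate 2. The small nucleolar RNA probes moved by -0.55 in this comparison, and their part in it was not tested.

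The members with the highest and the lowest test statistics for both variants against mock were not above background on all arrays. The probe hsa-miR-548i1-P read 6.02 and 4.68 in mock, 5.92 and 6.29 in variant 1 and 6.69 and 6.76 in variant 2. Both mock arrays lay below the level and 1 of the 4 variant arrays passed it (limma unadjusted p = 0.0342, adjusted p = 0.975). For hsa-mir-548f2-P the values were 6.004 and 5.29 in mock, 6.59 and 6.52 in variant 1 and 7.30 and 6.08 in variant 2 (limma unadjusted p = 0.0494, adjusted p = 0.975). All 4 of its variant arrays lay above both mock arrays, by as little as the gap from 6.004 to 6.08, and 1 of them passed the random-sequence level. The lowest test statistics were those of miR-548g, miR-548g-P and miR-548l-P, with a limma adjusted p of 0.975 each. None of the 3 passed the level on any array, so they give no measure of a change.

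Each variant was also set against mock alone. These comparisons share the mock arrays, so they are not independent of each other. For variant 1, 32 of 56 members (57.1%) were higher and 24 lower, beside 50.1% higher of all probes tested. The median difference was 0.092 beside 0.00013 over all probes tested. Without variant 1 replicate 1 the count was 28 higher and 28 lower. By limma, 0 members had an adjusted p under 0.05, beside 0% of all probes tested, and 2 had an unadjusted p under 0.05, beside 4.12%. The arrays did not overlap in 17 members (30.4%), 10 higher and 7 lower, beside 33.8% of all probes tested.

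Of the 9 members above background, 8 were higher in variant 1 than in mock and miR-548h2-P was lower (-0.17). Of all human miRNA probes above background, 51.7% were higher. The differences were 0.70 for miR-548u-P, 0.82 for miR-548t and 0.87 for miR-548k-P, with SEs of 0.49, 0.47 and 0.51 and a limma adjusted p of 0.960 each. Without mock replicate 1 they were 0.018, 0.29 and 0.29. The mock arrays of these 3 probes differed by more than 1 from each other, so the differences are within the spread of the mock group.

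The member with the lowest p in this comparison was hsa-miR-548a-5p, which read 5.66 and 5.46 in mock, 7.13 and 7.22 in variant 1 and 5.30 and 5.30 in variant 2. The arrays of a group lay close together, and both variant 1 arrays lay above all others and above background. Since mock lay below background, the signal in variant 1 was by the group means at least 1.26-fold higher (limma unadjusted p = 0.00175, adjusted p = 0.960). That bound sets the variant 1 mean of 7.17 against 6.84, the mean over the mock arrays of the lowest signal among probes above the level, in place of the measured mock mean of 5.56. A bound of this kind does not allow for array-to-array spread. The highest random-sequence probe read 7.49 on variant 1 replicate 1 and 7.16 on variant 1 replicate 2, so the signal lay near the range of those probes. The next highest test statistics were those of miR-548x and mir-548f2-P, neither of which passed the level on any mock or variant 1 array. In the other direction hsa-miR-548h4-P read 7.94 and 6.72 in mock, 6.68 and 3.86 in variant 1 and 7.67 and 7.56 in variant 2. Both variant 1 arrays and mock replicate 2 lay below the level, with variant 1 replicate 2 far below the other 5 arrays (limma unadjusted p = 0.0340, adjusted p = 0.960). The probes miR-548g and miR-548f1-P followed, and neither passed the level on a mock or variant 1 array.

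For variant 2 against mock, 35 of 56 members (62.5%) were higher and 21 lower, beside 51.3% higher of all probes tested. The median difference was 0.097 beside 0.014 over all probes tested. Without mock replicate 2 the count was 30 higher and 26 lower. By limma, 0 members had an adjusted p under 0.05, beside 0% of all probes tested, and 2 had an unadjusted p under 0.05, beside 4.79%. The arrays did not overlap in 20 members (35.7%), 13 higher and 7 lower, beside 33.3% of all probes tested. Of the 9 members above background, 5 were higher and 4 lower, beside 50.4% higher of all human miRNA probes above background. The differences of miR-548u-P, miR-548t and miR-548k-P were -0.45, -0.67 and -0.74, with a limma adjusted p of 0.956, 0.938 and 0.938. They depended on the mock arrays: leaving out mock replicate 1 gave -1.14, -1.20 and -1.32, while leaving out mock replicate 2 gave 0.23, -0.14 and -0.15. That of miR-548k-P was also -0.30 without variant 2 replicate 2 and -1.18 without variant 2 replicate 1.

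Both members with an unadjusted p under 0.05 were precursor-named. For miR-548i1-P, whose variant 2 arrays lay above both mock arrays, only variant 2 replicate 2 passed the random-sequence level (limma unadjusted p = 0.0213, adjusted p = 0.938). The probe hsa-miR-548h1-P, the precursor in SYNE2, which encodes a nuclear envelope protein, read 6.03 and 5.15 in mock, 6.98 and 5.33 in variant 1 and 7.56 and 6.92 in variant 2. Both variant 2 arrays were above background and both mock arrays below it, with measured means of 7.24 and 5.59. By the group means this puts variant 2 at least 1.32-fold higher (limma unadjusted p = 0.0225, adjusted p = 0.938). On variant 2 replicate 2 the highest random-sequence probe read 7.03, above this probe. The next highest statistic was that of mir-548f2-P, which passed the level on variant 2 replicate 1 alone. The lowest were those of miR-548g-P, which passed it on no array, miR-548k-P and miR-548t.

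The variants differ from each other by 1 T in the run. At an unadjusted p under 0.05, limma gave 6 of 56 members, 2 higher and 4 lower in variant 2, beside 4.96% of all probes tested. None passed after adjustment over all 1773 probes, where the lowest adjusted p was 0.924 and 0% of probes were called. Without variant 2 replicate 2, 27 members were higher in variant 2 than in variant 1 and 29 lower. With all arrays, 33 (58.9%) were higher and 23 lower, beside 50.5% higher of all probes tested. The family's median difference was 0.095 beside 0.0046 over all probes tested. The 9 members above background went the other way, with 3 higher and 6 lower and a median difference of -0.31. Of all human miRNA probes above background, 47.3% were higher, with a median difference of -0.028. The arrays did not overlap in 20 members (35.7%), 13 higher and 7 lower, beside 35.5% of all probes tested. The count of 6 moved to 7 or 3 when the first or second variant 1 replicate was left out and to 3 or 2 when the first or second variant 2 replicate was, and with mock replicate 1 and variant 2 replicate 2 both left out it was 4. With 1 array left out, the counts of 2 in the other comparisons ran from 0 to 4 for both variants, 2 to 7 for variant 1 and 1 to 5 for variant 2 against mock, so no order of the comparisons is read from them.

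Of the 9 members above background, 3 were lower in variant 2 at an unadjusted p under 0.05, beside 15 of 387 human miRNA probes above background, of which 7 were higher and 8 lower. These were miR-548u-P, miR-548t and miR-548k-P. The probe miR-548u-P had means of 12.83 ± 0.11 in variant 1 and 11.67 ± 0.041 in variant 2 (SD, n = 2 each), a difference of -1.15 (SE 0.49, 95% interval -2.26 to -0.044, limma unadjusted p = 0.0432, adjusted p = 0.924). For miR-548t the means were 10.01 ± 0.46 and 8.52 ± 0.18 (SD, n = 2 each), with a difference of -1.49 (SE 0.47, 95% interval -2.56 to -0.42, limma unadjusted p = 0.0120, adjusted p = 0.924). In both, the arrays of variant 1 lay above those of variant 2. The variant 1 arrays of miR-548t were themselves apart, at 9.68 and 10.34. So were the mock arrays, at 11.44 and 12.81 for miR-548u-P and 8.66 and 9.71 for miR-548t.

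The precursor probe miR-548k-P had means of 9.75 ± 0.20 and 8.15 ± 0.62 (SD, n = 2 each), a difference of -1.60 (SE 0.51, 95% interval -2.75 to -0.45, limma unadjusted p = 0.0119, adjusted p = 0.924), the lowest difference among the 387 human miRNA probes above background. Mock lay between the variants in all 3 probes, at 12.13 ± 0.96, 9.19 ± 0.75 and 8.88 ± 0.82 (SD, n = 2 each). Leaving out each array in turn gave differences of -1.24 to -1.07 for miR-548u-P, -1.82 to -1.16 for miR-548t and -2.04 to -1.16 for miR-548k-P. Of these, the last moved most, and it lay at -1.16 without variant 2 replicate 2. The small nucleolar RNA probes differed by -0.08 on average between the variants. The 7 haematopoietic marker probes, none of them above background, had means of 6.25 and 6.40 in variant 1, 6.19 and 5.98 in variant 2 and 5.83 and 5.81 in mock. Of the 7, 5 were lower and 2 higher in variant 2 than in variant 1. The liver and fibroblast marker means also lay lower on both variant 2 arrays than on both variant 1 arrays. Those of muscle lay higher, and those of colorectal epithelium and neural tissue overlapped. The part of the marker probes in the difference of the 3 miR-548 probes was not tested.

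**Figure D3:**
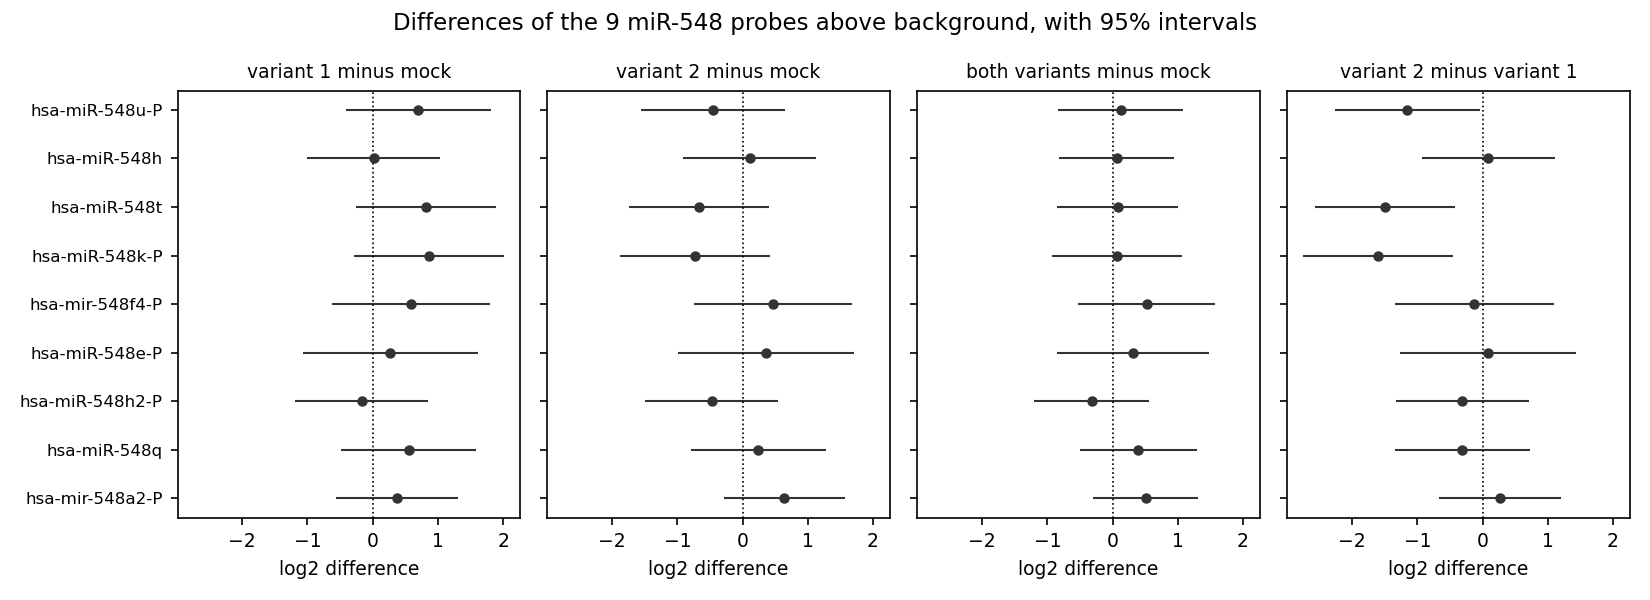
Difference in log2 signal for the 9 miR-548 probes above background in each comparison, as points with bars for the 95% interval of the limma fit; 0 marks no difference. In variant 2 against variant 1 the intervals of miR-548u-P, miR-548t and miR-548k-P lie below 0, and every other interval of the plot crosses 0.

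Of the other 3 members with an unadjusted p under 0.05, hsa-miR-548a-5p had means of 7.17 ± 0.060 in variant 1 and 5.30 ± 0.0014 in variant 2 (SD, n = 2 each). As variant 2 lay below background, variant 1 was by the group means at least 1.12-fold higher (limma unadjusted p = 0.000683, adjusted p = 0.924). Both of its variant 1 arrays lay above both mock arrays and both of its variant 2 arrays below them. This order or its reverse held in 2.48% of all probes tested. In hsa-miR-548h4-P both variant 2 arrays passed the level and both variant 1 arrays lay below it, at 6.68 and 3.86. By the group means variant 2 was at least 1.70-fold higher (limma unadjusted p = 0.0194, adjusted p = 0.924). The third, miR-548f1-P, passed the level on variant 2 replicate 2 alone (limma unadjusted p = 0.0272, adjusted p = 0.924). The next highest statistic was that of miR-548h1-P, above the level on both variant 2 arrays and on variant 1 replicate 1, and its difference of 1.08 ran from 0.26 to 1.90 with 1 array left out.

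**Figure D4:**
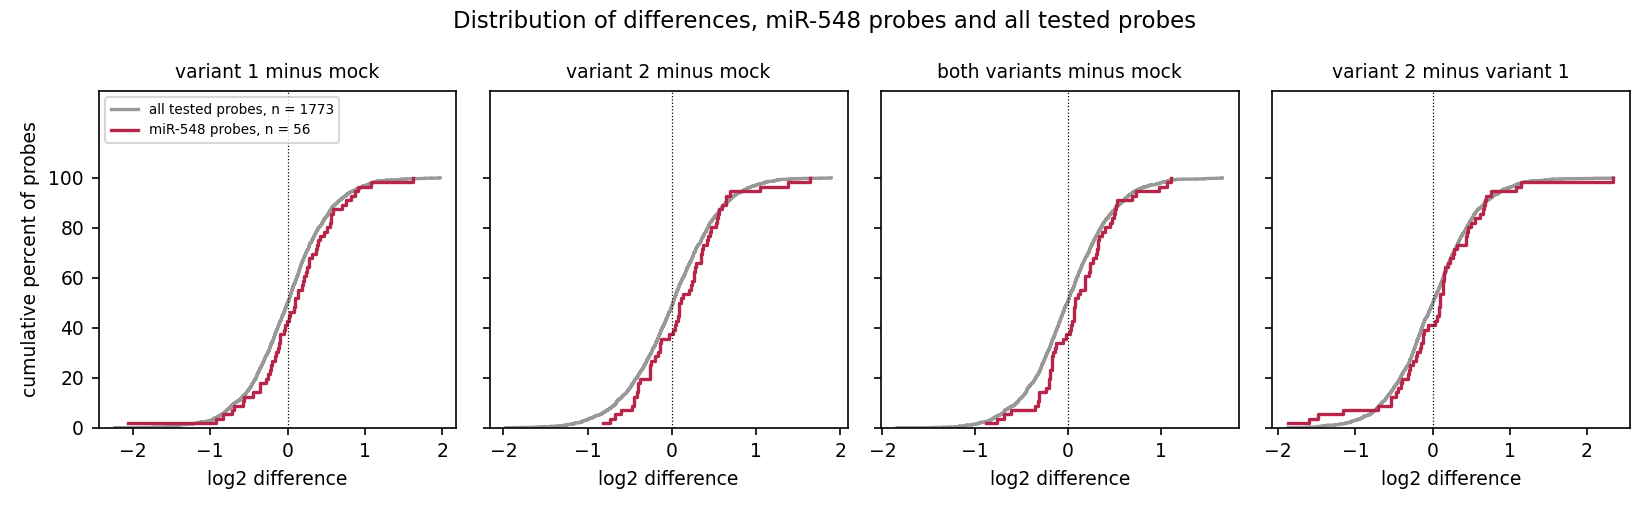
Cumulative share of probes by difference in log2 signal, for the 56 miR-548 probes and for all probes tested, in each comparison. The family's median lies between 0.076 and 0.097 in the 4 comparisons and that of all probes tested between -0.0073 and 0.014.

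The members differed in how steady they were over the 6 arrays. The largest SDs were those of miR-548h4-P (1.503), miR-548h1-P (0.97) and miR-548a-5p (0.91). The smallest were those of miR-548d-3p (0.11), which passed the level on no array, miR-548i4-P (0.17) and miR-548h3-P (0.22). For the 9 members above background, the SD over probes of the difference between replicate arrays was 0.63 in mock, 0.55 in variant 1 and 0.81 in variant 2, beside 0.76, 0.46 and 0.67 for all human miRNA probes above background. This SD leaves out a shift that the probes of a set share. The mean of the 9 members read 8.32 and 9.06 on the mock arrays. The median residual SD of the 9 members was 0.52, beside 0.36 for all human miRNA probes above background.

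The probes miR-548u-P, miR-548t and miR-548k-P followed each other over the 6 arrays, with a Pearson r of 0.952 for miR-548u-P and miR-548t, 0.912 for miR-548u-P and miR-548k-P and 0.895 for miR-548t and miR-548k-P. These values describe 6 arrays that share 1 normalization, and they include the contrast in which the 3 probes stood out. Among the other pairs of the 9 members above background, r ran from -0.73 (miR-548h and miR-548h2-P) to 0.69 (mir-548f4-P and miR-548q). The mean of the 9 members above background read 8.32 and 9.06 in mock, 8.97 and 9.31 in variant 1 and 8.64 and 8.63 in variant 2. Over 1685 other human miRNA probes, the patterns most like it were those of hsa-miR-3132-P (r = 0.988 over 6 arrays), hsa-miR-130b* (r = 0.979) and hsa-miR-876-5p (r = 0.978). The first was above background on all 6 arrays, the others on 3 and 4.

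Other miRNAs that derive from transposons were read from 3 lists. Those related to MADE1 under other names (miR-570, miR-579 and miR-603) had 6 probes, none above background, of which 2 were higher and 4 lower in both variants than in mock, with a median difference of -0.11. The lowest p-values were those of hsa-mir-579-P (limma unadjusted p = 0.0149, adjusted p = 0.975) and hsa-miR-603, neither of which passed the level on any array. Other miRNAs of the primate lineage, from Alu, L1 and MER elements, had 30 probes, 8 of them above background, 10 higher and 20 lower, with a median difference of -0.19. The lowest p-values there were those of hsa-miR-1302-4-P and hsa-mir-552-P, neither of which passed the level on any array. Transposon-derived miRNAs kept across mammals had 28 probes, 2 of them above background (miR-885-3p and miR-885-5p), 12 higher and 16 lower, with a median difference of -0.12, and the lowest p-values were those of hsa-mir-421-P and hsa-miR-616, which passed the level on 1 array and on 4. By limma no probe of these lists had an adjusted p under 0.05 in any of the 4 comparisons, as in all 1773 probes, and at an unadjusted p under 0.05 the lists, in the order above, held 1, 0 and 1 probe for both variants against mock (beside 4.62% of all probes tested), 0, 1 and 1 for variant 1 (4.12%), 1, 1 and 0 for variant 2 (4.79%) and 0, 1 and 0 between the variants (4.96%).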

How the data were processed

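Total RNA of HCT-116 cells was extracted with Trizol, treated with DNase and labelled by reverse transcription with a biotinylated random octamer primer, per the labels' protocols, and each sample was read on 1 one-colour array. The deposited table holds log2 signals that the authors had already normalized, as its array medians show. The submitters' processing notes name limma, while the sources used here do not give the background correction, the normalization or a genome build.

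From these values a limma model (version 3.58.1, R 4.3.3) with 1 mean per group was fitted to all 6 arrays and the 1773 human miRNA and ultraconserved-region probes, with no filter. Each probe had 3 residual degrees of freedom, to which the prior added 5.71. Tests were two-sided, and p-values were adjusted (Benjamini-Hochberg) across all 1773, with calls at an adjusted p under 0.05. The steps were tested on simulated data for both variants against mock alone, with independent noise and no array that stood apart. Replicates were numbered in accession order, so the numbers pair no arrays, and 2 arrays a group limit the precision. The family, the lists and the level for background were chosen with earlier results of these data known.

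Named were the members above background, the 3 highest and 3 lowest by moderated t in each comparison, the 3 with the largest and the smallest SD, the pairs of probes with 1 name, the 2 of each list with the smallest p, and the 3 probes most like the mean of the members above background. The alternatives were quantile normalization, median centring, other priors, other sets of probes, other levels for background and leaving out each array. Sequences and gene neighbours came from RefSeq tables of GRCh38.p14, and members without a match there are named only.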

Additional observations from a re-analysis of the deposited data

Results flagged for a closer look

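The probe hsa-miR-548a-5p was the 1 member of the family in which both arrays of a variant lay above both mock arrays and both arrays of the other variant lay below them, beside 44 of the 1773 probes tested (2.48%). It read 5.66 and 5.46 in mock, 7.13 and 7.22 in variant 1 and 5.30 and 5.30 in variant 2. The fitted difference between variant 2 and variant 1 was -1.87 (SE 0.36, limma adjusted p = 0.924), lower in 2 of 2 variant 2 arrays. Both variant 2 arrays lay below the random-sequence level, so the fitted value is no measure of the size of a change. The random-sequence level was passed on the variant 1 arrays only, so by the group means variant 1 was at least 1.12-fold above variant 2. That bound does not allow for array-to-array spread. The highest random-sequence probe read 7.49 on variant 1 replicate 1, above this probe. Leaving out each array in turn kept variant 2 below variant 1. The name stands for 3 gene copies, and whether the probe tells it from related members was not tested.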

How the results depend on the processing

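In all 4 comparisons 0 of the miR-548 members had a limma adjusted p under 0.05 under each of the 13 alternatives, and the lowest adjusted p, 0.122, was that of miR-548h4-P in variant 2 against variant 1 without variant 1 replicate 1. Of 708 values of 56 probe differences under the alternatives, 668 kept their direction and 40 changed it, all 40 where arrays were left out. Quantile normalization and median centring turned no direction, and under them the median of all probes lay between -0.011 and 0.011. Over the settings that leave out 1 array, the family's median ran from -0.022 to 0.11 for both variants against mock, 0.0021 to 0.19 for variant 1, 0.065 to 0.16 for variant 2 and -0.038 to 0.17 between the variants. The count of 9 members above background could not change there, since no member passed the level on exactly 5 arrays. With only the probes above background, the family's median was 0.55 for variant 1 against mock and -0.31 for variant 2 against variant 1. Over all probes tested in that setting it was 0.014 and -0.029. The count above background was 4 of 56 with the highest random-sequence probe as the level (17.2% of human miRNA probes), also 4 with the mean plus 2 SD (19.1%), with miR-548h, miR-548k-P, miR-548t and miR-548u-P each time, and 17 with both arrays of at least 1 group (33.7%). Differences that crossed 0 with 1 array left out ran as follows. For both variants against mock they were -0.56 to 0.80 for miR-548u-P, -0.30 to 0.42 for miR-548h, -0.45 to 0.60 for miR-548t, -0.51 to 0.65 for miR-548k-P, -0.29 to 1.34 for mir-548f4-P and -0.16 to 0.79 for miR-548e-P. For variant 1 they were -0.37 to 0.41 for miR-548h, -0.22 to 1.40 for mir-548f4-P and -0.69 to 0.36 for miR-548h2-P, and for variant 2 -1.14 to 0.23 for miR-548u-P, -0.26 to 0.47 for miR-548h, -0.35 to 1.28 for mir-548f4-P, -0.60 to 1.31 for miR-548e-P and -0.040 to 0.52 for miR-548q. Between the variants they were -0.30 to 0.47 for miR-548h, -0.25 to 0.0044 for mir-548f4-P, -0.87 to 1.04 for miR-548e-P, -0.84 to 0.22 for miR-548h2-P, -0.79 to 0.17 for miR-548q and -0.071 to 0.61 for mir-548a2-P. An alternative chosen after seeing the data left out mock replicate 1 and variant 2 replicate 2 together. It gave, for both variants, -0.57 (miR-548u-P), -0.21 (miR-548h), -0.52 (miR-548t), -0.29 (miR-548k-P), -0.29 (mir-548f4-P) and -0.37 (miR-548e-P). For variant 1 it gave -0.34 (miR-548h) and -0.22 (mir-548f4-P), for variant 2 -0.082 (miR-548h), -0.36 (mir-548f4-P) and -0.81 (miR-548e-P), with -1.17 for miR-548u-P, and between the variants -0.87 (miR-548e-P). The cause of these changes was not tested beyond the array left out. No paired analysis was possible because the labels give no replicate numbers.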

Other observations

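Base composition differed between the family and other miRNAs on the array. The 12 members matched by exact name had a GC content of 27.3% to 54.5%, with a median of 36.4%, beside a median of 51% for 456 other human mature-named probes matched in the same way. Of the 12, 1 (miR-548q, which has the highest GC content of them) was above background, or 8.33%, and 4 (33.3%) passed the level on no array. The 12 do not include miR-548h and miR-548t, which were above background. Among the others, 45 of 279 (16.1%) with a GC content no higher than 54.5% were above background, and 45 of 177 (25.4%) with a higher one. Those 279 had a median GC content of 45.5%, so they are not matched to the family. The level was passed on no array by 198 of the 456 others (43.4%) and by 143 of the 279 (51.3%). These shares are descriptions of probes on the same 6 arrays, and the part of base composition in the signal of the family was not tested.

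The pattern over the arrays most opposite to the mean of the 9 members above background was that of hsa-miR-566, with r = -0.980 over 6 arrays. This value is the extreme of a search over 1685 probes on few arrays. The miRNA derives from an Alu element, and any part of that origin was not tested. Its probe was above background on all 6 arrays.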
